A study of Ovis aries with 8 samples.

Results

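Hepatocytes store surplus fatty acids as triglyceride in cytosolic lipid droplets, and the 10 genes described here encode proteins that coat these droplets or control the release of fatty acids from them. They were chosen by name (PLIN2, PLIN3, PLIN4, PLIN5, CIDEB, CIDEC, PNPLA2, PNPLA3, G0S2 and ABHD5), and all 10 were found by symbol among the 27729 genes of the deposited table. Livers of 8 preweaning Assaf lambs were sampled, 1 RNA library per lamb, to ask how a smaller milk allowance alters the liver. The 4 ADL lambs drank milk replacer ad libitum (192 mL per kg of body weight), and the 4 RES lambs were restricted to 120 mL per kg. The ADL lambs weighed 10.4 to 12.45 kg at slaughter at 33 to 36 days of age, and the RES lambs 7.5 to 8.7 kg at 33 to 36 days. Lambs are named by group and number, ADL 1 to ADL 4 and RES 1 to RES 4.

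Perilipins (the PLIN proteins) cover the droplet surface and limit the access of lipases, whereas CIDE proteins act where droplets touch, fuse or hand lipid to lipoproteins. PNPLA2, also called adipose triglyceride lipase, takes the first fatty acid off triglyceride. ABHD5 activates this lipase, and G0S2 binds and inhibits it. PLIN5 binds both ABHD5 and PNPLA2 and brings droplets to mitochondria, and PNPLA3 is a droplet protein of hepatocytes that competes for ABHD5. These roles are known mostly from mice and human cells. In liver several of these genes, PLIN2 among them, are targets of the fatty acid receptor PPARA.

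Levels are TPM (the authors' transcript abundances, scaled to gene length and to the total of each library), so that levels of different genes can be compared. Log2 fold changes are RES over ADL on log2(TPM + 0.5) and were tested with limma in all genes that averaged at least 1 TPM, with Benjamini-Hochberg adjustment over all genes and a threshold of 0.05. In counts of genes, fell and rose mean past this threshold. Values after ± are SDs. The libraries held 15134039 to 17879918 reads assigned to genes. Over all tested genes ADL 3 did not lie with its group. When every lamb was placed between its own group mates (0) and the other group (1), ADL 3 came out at 1.04 and RES 4 at 0.61, and the rest at -0.04 to 0.21. Fold changes and ratios of the members are therefore given with and without ADL 3, a lamb singled out with its values known. Leaving out such a lamb can narrow the spread within ADL. The SEs, intervals and p-values without ADL 3 are therefore descriptive. Genes outside the members are given in the fits named beside them. The hepatocyte marker ALB (albumin) had 28707 to 111613 TPM. Of 8 adipocyte markers 1, the hormone LEP, was at 0 in every lamb, and the others are given further on. In whole liver, fewer cells of a type and less RNA per cell cannot be told apart.

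PLIN2, the main droplet coat protein of hepatocytes, showed the widest group difference of the 10 genes. It had 214.7 TPM in ADL 1, 302.7 in ADL 2, 13.5 in ADL 3 and 193.03 in ADL 4. It had 18.8, 26.1, 14.6 and 13.01 TPM in RES 1 to RES 4. ADL 1, ADL 2 and ADL 4 were thus far above every RES lamb, while ADL 3 lay inside the RES range. The means were 181.003 ± 121.3 TPM in ADL and 18.1 ± 5.86 in RES (n = 4 each), a 9.98-fold ratio of means. The log2 fold change was -2.68 (SE 0.83, 95% interval -4.53 to -0.83), with an unadjusted limma p of 0.00923 that did not pass over all genes (adjusted p = 0.359). In the authors' deposited table, from their DESeq2 count model, PLIN2 fell, with an adjusted p of 0.00023 and a shrunken log2 fold change of -1.75 (SE 0.34). It held place 27 of all genes by p in the authors' deposited table.

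Without ADL 3, PLIN2 fell by 3.69 on the log2 scale (SE 0.26, 95% interval -4.28 to -3.11, limma adjusted p = 0.000719), with 236.8 ± 58.1 TPM in 3 ADL lambs against 18.1 ± 5.86 in 4 RES lambs. Only 7 of the 13815 genes tested without ADL 3 had a lower log2 fold change, which puts PLIN2 at place 8. After median-of-ratios rescaling of the libraries PLIN2 fell by 3.55 (limma adjusted p = 0.00229). In the 8 lambs PLIN2 held place 12 by log2 fold change. The values behind it rest on 258 to 5540 reads per lamb, so that counting error is small beside the spread between lambs.

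**Figure D1:**
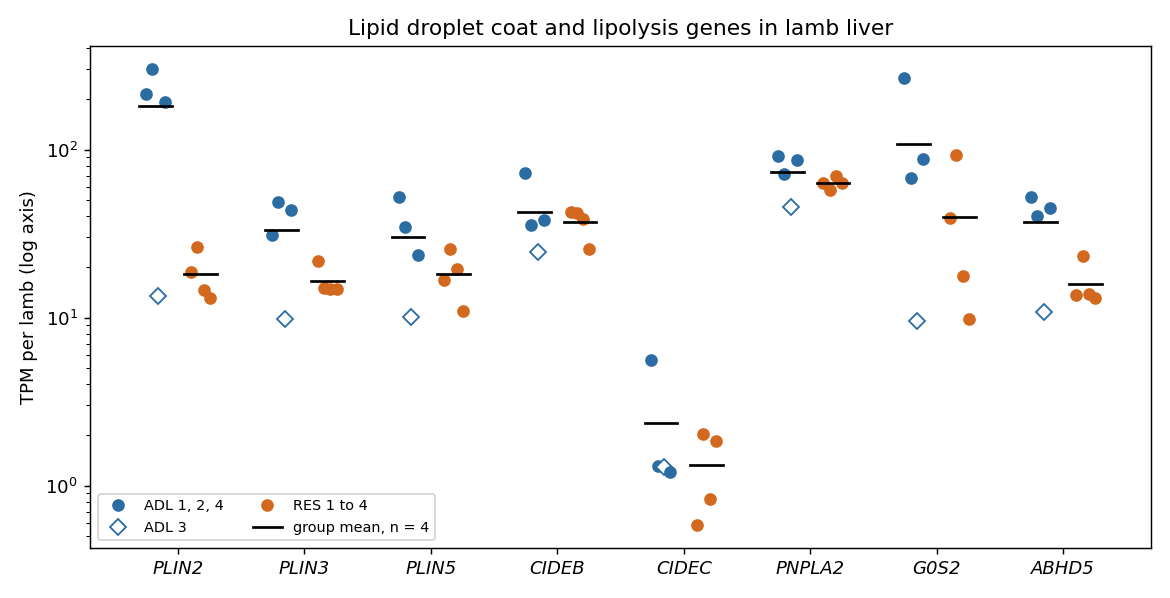
TPM per lamb on a log axis for the 8 genes that averaged at least 1 TPM, with ADL lambs in blue, ADL 3 as an open diamond, RES lambs in orange and black lines for group means (n = 4). ADL 3 lies at 13.5 TPM of PLIN2 against 193.03 to 302.7 TPM in the other ADL lambs, and is the lowest of the 8 lambs in 6 of the 8 genes.

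Of the other perilipins, PLIN3, which moves from the cytosol onto newly formed droplets in most cell types, followed PLIN2 with a smaller difference. It had 31.1, 48.9, 9.77 and 43.8 TPM in ADL 1 to ADL 4 and 21.6, 15.0, 14.9 and 14.9 TPM in RES 1 to RES 4. Again 3 ADL lambs lay above all RES lambs and ADL 3 lay below them all. The log2 fold change was -0.78 (SE 0.44, 95% interval -1.76 to 0.19, limma adjusted p = 0.617). Without ADL 3, PLIN3 fell by 1.28 (SE 0.20, limma adjusted p = 0.0121), with 41.3 ± 9.19 TPM in 3 ADL lambs against 16.6 ± 3.33 in 4 RES lambs.

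PLIN5, the perilipin of tissues that burn fat, had 52.0, 34.5, 10.1 and 23.6 TPM in ADL 1 to ADL 4. It had 16.8, 25.6, 19.3 and 10.9 TPM in RES 1 to RES 4. The groups overlapped with and without ADL 3, since RES 2 exceeded ADL 4. Its log2 fold change was -0.55 (SE 0.45, 95% interval -1.56 to 0.45, limma adjusted p = 0.738), and without ADL 3 it was -0.99 (SE 0.33, limma adjusted p = 0.0903). It was -0.22 without ADL 1, -0.34 without RES 4 and -0.85 with slaughter age as a covariate. PLIN5 passed in none of these fits.

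PLIN4, a perilipin of adipose tissue, was barely detectable. Its reads numbered 7 over the 8 lambs, with 0 to 2 in each, and a count of 0 still allows up to 3 reads, or 0.0815 to 0.0957 TPM in the 3 lambs without a read (counting error only). It failed the filter on low values and no fold change is given. On chromosome 5 of the deposited coordinates (genome build not given in the sources used here), PLIN4 (17131002 to 17139777, plus strand) starts 3588 bases after the end of PLIN5 (17116062 to 17127413, plus strand). These neighbours thus differed in level by orders of magnitude in the same livers. PLIN3 lies on the same chromosome at 16817447 to 16838806, and PLIN2 on chromosome 2 at 87123150 to 87137944 (minus strand, 9 exons).

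The makeup of the perilipin transcripts differed as well as their sum. Summed over PLIN2 to PLIN5, the 4 ADL lambs had 297.8, 386.1, 33.4 and 260.5 TPM and the RES lambs 38.8 to 66.7 TPM. PLIN2 made up 72.1%, 78.4% and 74.1% of this sum in ADL 1, ADL 2 and ADL 4. It made up 29.9 to 39.2% in RES and 40.5% in ADL 3. In RES 1, RES 3 and RES 4 PLIN2 was not the leading perilipin transcript, since PLIN3 or PLIN5 exceeded it. PLIN5 held 28.1 to 39.6% of the sum in RES, and 17.5%, 8.93% and 9.07% in ADL 1, ADL 2 and ADL 4. These shares describe the lambs and were not tested, apart from the ratio of PLIN2 to PLIN3 given further on.

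**Figure D2:**
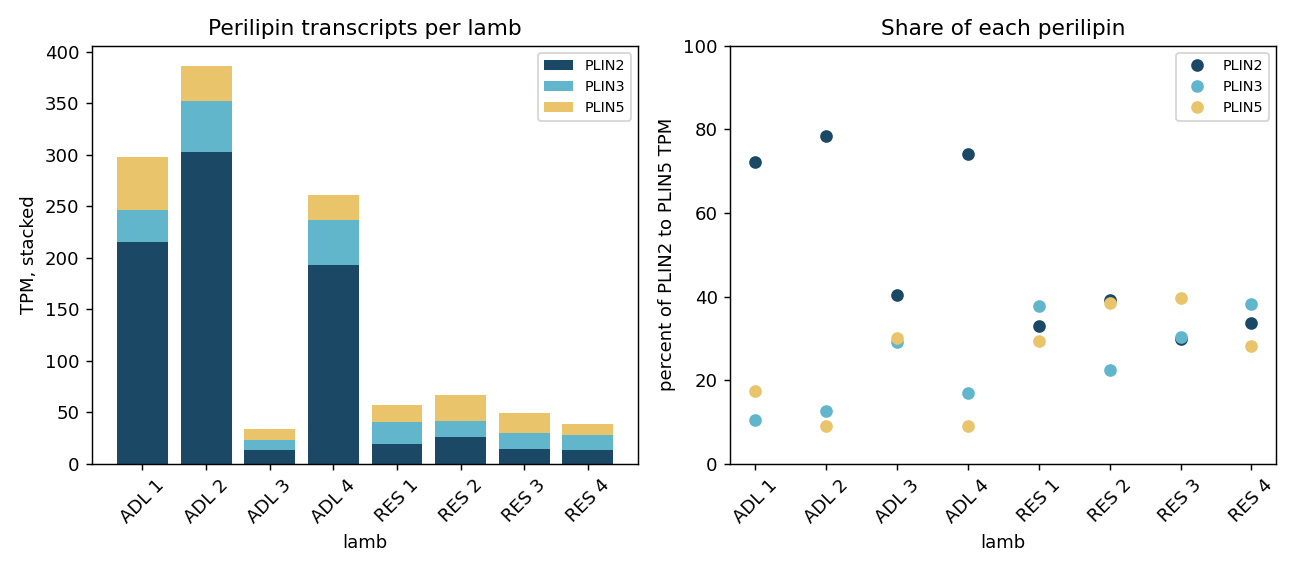
Left, stacked TPM of PLIN2, PLIN3 and PLIN5 in each lamb; right, each gene's percent of the TPM of PLIN2 to PLIN5 (PLIN4 is under 0.1 TPM and not drawn). PLIN2 takes 72.1 to 78.4% in ADL 1, ADL 2 and ADL 4 and 29.9 to 40.5% in RES and ADL 3.

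The CIDE genes gave no call. CIDEB, the liver form that helps to load lipid onto very low density lipoproteins, had 72.3, 35.6, 24.6 and 38.1 TPM in ADL 1 to ADL 4 and 42.2, 41.9, 38.7 and 25.5 TPM in RES 1 to RES 4. Apart from ADL 1, the lambs of both groups covered overlapping ranges. Its log2 fold change was -0.11 (SE 0.31, 95% interval -0.81 to 0.58, limma adjusted p = 0.932), and it changed sign to 0.17 without ADL 1. Without ADL 3 it was -0.34 (95% interval -0.98 to 0.30, limma adjusted p = 0.455). CIDEB lies on chromosome 7 at 20472042 to 20476965 on the plus strand.

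CIDEC, which joins droplets into larger ones in adipocytes and fatty liver, was low, with 8 to 69 reads per lamb. It had 5.59 TPM in ADL 1, against 1.31, 1.30 and 1.20 TPM in ADL 2 to ADL 4. It had 0.584, 2.02, 0.83 and 1.85 TPM in RES 1 to RES 4. ADL 1 stood alone, and the other 7 lambs overlapped. The log2 fold change was -0.50 (SE 0.45, 95% interval -1.4997 to 0.51, limma adjusted p = 0.759), -0.64 without ADL 3 (limma adjusted p = 0.433), -0.05 without ADL 1 and -0.28 without RES 1. ADL 1 also had the highest level of the 8 lambs in 4 of the 8 adipocyte markers, among them PLIN1 (5.53 TPM against 0.414 to 1.74 in the others), CIDEA (4.27 against 1.55 to 3.28) and ADIPOQ (0.116 against 0 to 0.0357). Of the others, LIPE was lowest of all lambs in ADL 1 (0.179 TPM), FABP4 was higher in ADL 2 (20.7 TPM against 7.58 in ADL 1), and CFD was higher in 5 lambs. The summed adipocyte markers were 344.3 TPM in ADL 1, within the range of 272.9 to 481.6 TPM over all lambs, most of it CFD. The part of these in the CIDEC value was not tested.

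Among the genes of lipolysis, the lipase PNPLA2 was the steadiest of the tested members. It had 91.7, 72.02, 45.6 and 86.7 TPM in ADL 1 to ADL 4 and 63.1, 57.2, 69.9 and 63.3 TPM in RES 1 to RES 4. The highest lamb was 2.01 times the lowest, where PLIN2 ranged over 23.3 times and G0S2 over 28.1 times. ADL 1, ADL 2 and ADL 4 lay above every RES lamb by a narrow margin, and ADL 3 below them all. The log2 fold change was -0.18 (SE 0.22, 95% interval -0.67 to 0.32, limma adjusted p = 0.834), and without ADL 3 it was -0.39 (95% interval -0.69 to -0.09, limma adjusted p = 0.0923). It was -0.06 without ADL 1 and -0.08 without ADL 4. PNPLA2 lies on chromosome 21 at 49220414 to 49223287 on the minus strand and has 8 exons.

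ABHD5, the activator of PNPLA2, had 52.2, 40.2, 10.8 and 45.004 TPM in ADL 1 to ADL 4. It had 13.7, 23.1, 13.8 and 12.99 TPM in RES 1 to RES 4. RES 2 stood above the other RES lambs, ADL 3 was the lowest of all, and the other 3 ADL lambs lay together at the top. The log2 fold change was -1.02 (SE 0.45, 95% interval -2.02 to -0.03), with an unadjusted limma p of 0.0453 that did not pass over all genes (adjusted p = 0.502). Without ADL 3, ABHD5 fell by 1.53 (SE 0.21, 95% interval -2.01 to -1.04, limma adjusted p = 0.00896), with 45.8 ± 6.03 TPM in 3 ADL lambs against 15.9 ± 4.82 in 4 RES lambs. It is on chromosome 19 at 15516763 to 15554522. In the authors' deposited table its adjusted p was 0.114 and that of PLIN3 was 0.243.

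G0S2, the inhibitor of PNPLA2, varied more among the lambs of each group than between the groups. It had 267.5, 67.9, 9.53 and 88.03 TPM in ADL 1 to ADL 4 and 39.3, 92.6, 17.7 and 9.77 TPM in RES 1 to RES 4. RES 2 exceeded ADL 2, ADL 3 and ADL 4. The log2 fold change was -1.14 (SE 0.95, 95% interval -3.27 to 0.99, limma adjusted p = 0.744), and without ADL 3 it was -2.03 (SE 0.76, 95% interval -3.77 to -0.29, limma adjusted p = 0.12). It was -0.45 without ADL 1, -0.64 without RES 4 and -1.85 with slaughter age as a covariate. G0S2, a short gene with 2 exons on chromosome 12 at 71696367 to 71697297, rests on 69 to 1630 reads per lamb.

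PNPLA3 had too few reads for the main test. It had 5, 0, 0 and 0 reads in ADL 1 to ADL 4 and 1, 11, 9 and 4 reads in RES 1 to RES 4, or 5 reads over ADL and 25 over RES. All RES lambs had at least 1 read and 3 ADL lambs had none, where 0 reads allow up to 0.125 to 0.137 TPM (counting error only). The levels were 0.247 TPM in ADL 1 and 0.0445 to 0.521 TPM in RES. When no filter was applied, its limma p was 0.0625 (adjusted p = 0.623), and in the authors' deposited table the adjusted p was 0.468. It was the 1 member with a higher mean in RES, at a level under 1 TPM in every lamb.

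In the 8 lambs all 8 tested members had a log2 fold change below 0, where 56.5% of all tested genes did, and each had a mean TPM of at least 1 in both groups. The median was -0.67 over the members and -0.04 over all genes. None of the 8 passed limma over all genes, where 1 of 13812 genes (0.00724%) did. PLIN2 and ABHD5 had an unadjusted p under 0.05 and were lower in RES, 2 of 8 against 4.17% of all tested genes. Without ADL 3 all 8 tested members had a log2 fold change below 0, where 63.9% of all tested genes did. Past the threshold, 3 of 8 fell (PLIN2, PLIN3 and ABHD5), against 7.59% of all genes, and none rose, against 2.42%. All 3 also fell when libraries were rescaled by median of ratios, against 3.87% of genes, and again none rose, against 4.46%. That rescaling moved the median of all genes from -0.13 to 0.01, and the median of the members from -1.14 to -0.99. The authors' deposited table lists 1 member, PLIN2, with an adjusted p under 0.05 and lower in RES, against 1.05% of its genes with an adjusted p. The members were chosen with earlier results of these lambs known, so that these counts describe them and do not set them apart.

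**Figure D3:**
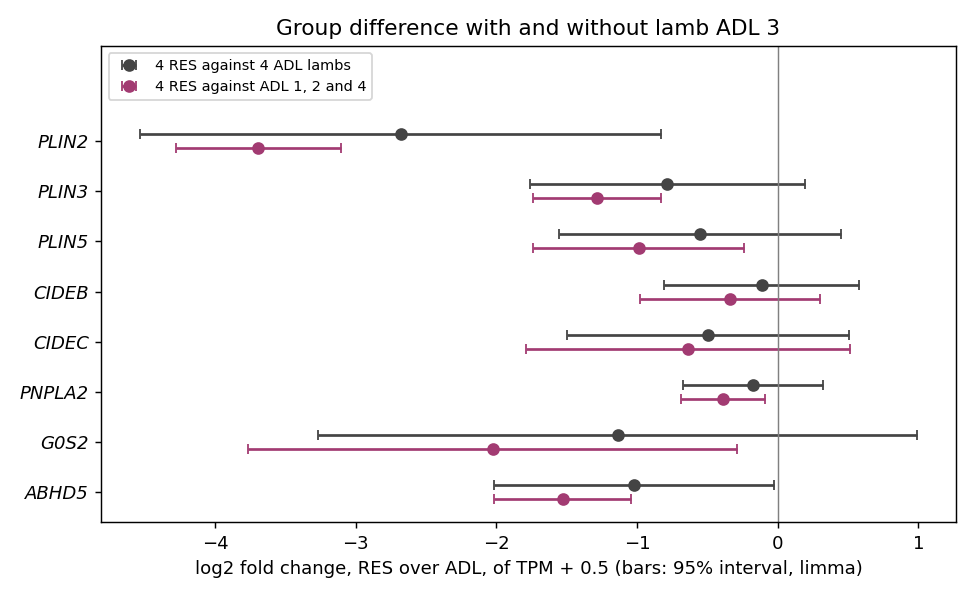
Log2 fold change (RES over ADL, of TPM + 0.5) with 95% limma intervals for the 8 tested genes, in all 8 lambs (grey) and without ADL 3 (purple). The interval of PLIN2 is -4.53 to -0.83 in 8 lambs and -4.28 to -3.11 without ADL 3, and the intervals of CIDEB and CIDEC span 0 in both.

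The groups overlapped in all 10 members when ADL 3 was counted, where 1.68% of tested genes had all RES lambs below all ADL lambs. Without it, PLIN2, PLIN3, PNPLA2 and ABHD5 had every RES lamb below every ADL lamb, 4 of 8 tested members against 21.7% of genes. ADL 3 was the lowest ADL lamb in 7 of the 8 tested members, with CIDEC as the exception. In 6 of the 8 (PLIN3, PLIN5, CIDEB, PNPLA2, G0S2 and ABHD5) it lay below every RES lamb as well. Within RES, RES 4 was the lowest lamb in 6 of the 8 members and RES 2 the highest in 5. FGB (fibrinogen beta chain, an acute phase protein), taken here as a hepatocyte marker, had 53575 TPM in ADL 3 and 39820 TPM in RES 4, against 10710 to 27848 TPM in the other lambs. The part of this in the members' levels was not tested.

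The order of levels changed between the groups. In ADL the means ran from PLIN2 (181.003 TPM) through G0S2 (108.2), PNPLA2 (74.005), CIDEB (42.6), ABHD5 (37.04), PLIN3 (33.4) and PLIN5 (30.1) to CIDEC (2.35). In RES PNPLA2 (63.4 TPM) came first, followed by G0S2 (39.8), CIDEB (37.1), PLIN2 (18.1), PLIN5 (18.1), PLIN3 (16.6), ABHD5 (15.9) and CIDEC (1.32). In ADL the ranges of neighbours overlapped in every step from PLIN2 down to PLIN5, and those of PLIN5 and CIDEC did not. In RES all steps from PNPLA2 down to ABHD5 overlapped, though PLIN2 lay below CIDEB in all 4 RES lambs. PLIN2, first in ADL 2 and ADL 4 by a wide margin, was second to G0S2 in ADL 1.

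Ratios of members within a lamb depend little on how a library is scaled where both genes are well above the pseudocount of 0.5 TPM, and 5 of them were put to exact permutation tests (two-sided, 70 assignments, smallest possible p = 0.0286), adjusted over the 5. PLIN2 stood to PLIN3 at 6.91, 6.19, 1.38 and 4.404 in ADL 1 to ADL 4 and at 0.871, 1.74, 0.983 and 0.876 in RES 1 to RES 4. The mean log2 ratio was 1.99 ± 1.06 in ADL and 0.10 ± 0.46 in RES (exact permutation p = 0.0571, adjusted p = 0.143, n = 4 each). The single overlap was ADL 3 below RES 2. With ADL 3 left out the groups were therefore apart by construction. The p was then the smallest that 35 assignments allow (exact permutation p = 0.0286, adjusted p = 0.0952). Since ADL 3 was left out with its values known, this p is a description and not a test.

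ABHD5, the activator, stood to PNPLA2, its lipase, at 0.569, 0.558, 0.237 and 0.519 in ADL 1 to ADL 4. In RES 1 to RES 4 the ratio was 0.217, 0.404, 0.198 and 0.205. The mean log2 ratio was -1.15 ± 0.59 in ADL and -1.998 ± 0.48 in RES (exact permutation p = 0.0571, adjusted p = 0.143, n = 4 each). ADL 1, ADL 2 and ADL 4 lay close together and above all RES lambs, and RES 2 came nearest to them. Without ADL 3 the difference was -1.14 (exact permutation p = 0.0571, adjusted p = 0.0952, 3 against 4 lambs).

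G0S2, the inhibitor, stood to PNPLA2 at 2.92, 0.943, 0.209 and 1.02 in ADL 1 to ADL 4 and at 0.622, 1.62, 0.253 and 0.154 in RES 1 to RES 4. The groups overlapped widely (mean log2 ratio -0.18 ± 1.54 in ADL and -1.14 ± 1.47 in RES, exact permutation p = 0.429, adjusted p = 0.429, n = 4 each). Without ADL 3 the difference was -1.64 (exact permutation p = 0.2, adjusted p = 0.25, 3 against 4 lambs). ADL 1 and RES 2 had more G0S2 than PNPLA2 transcript by a wide margin, and ADL 4 by a narrow one. For CIDEC to CIDEB the mean log2 ratio was -4.05 ± 0.43 in ADL and -4.43 ± 0.82 in RES (exact permutation p = 0.429, n = 4 each), and without ADL 3 the difference was -0.30 (exact permutation p = 0.6, adjusted p = 0.6). For PNPLA3 to PNPLA2 it was -7.03 ± 0.39 and -6.39 ± 0.45 (exact permutation p = 0.0857, adjusted p = 0.143, n = 4 each), and without ADL 3 the difference was 0.80 (exact permutation p = 0.0571, adjusted p = 0.0952). With 0 reads of PNPLA3 in 3 ADL lambs the pseudocount sets this ratio, and the difference of 0.64 in the 8 lambs became 1.46 at a pseudocount of 0.1 and 0.44 at 1. None of the 5 ratios passed after adjustment, with or without ADL 3.

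**Figure D4:**
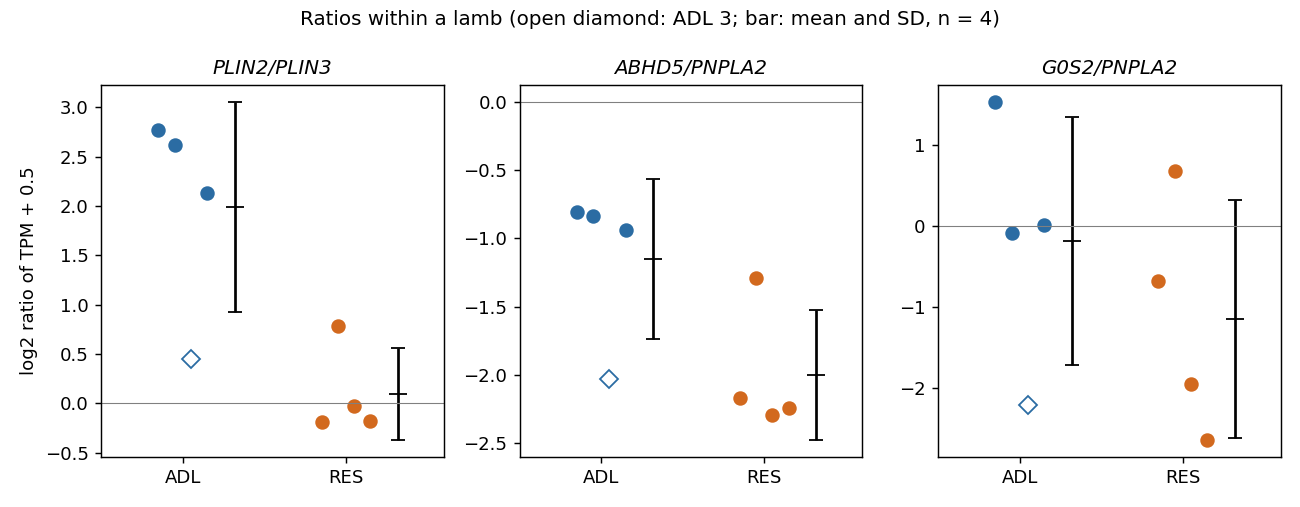
Log2 ratio of TPM + 0.5 of PLIN2 to PLIN3, ABHD5 to PNPLA2 and G0S2 to PNPLA2 in each lamb (ADL 3 as an open diamond), with the mean and SD of each group (n = 4) beside the points. ADL 3 lies at 0.45, -2.03 and -2.20, within the range of the RES lambs in each.

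Members were also compared by shape, as the root mean square difference between their log2 profiles over the 8 lambs after each was centred on its own mean. CIDEB and PNPLA2 were nearest to each other (0.32), followed by PLIN5 and ABHD5 (0.39). PLIN2 was farthest from CIDEC (1.69) and CIDEB (1.66), and its nearest member was ABHD5 (1.07). The measure counts size as well as direction, and PLIN2 itself deviated by 1.85 from its mean.

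Over the 11005 other tested genes with a symbol, the profile nearest to PLIN2 was that of GK (glycerol kinase, which makes glycerol 3-phosphate from glycerol), at a difference of 0.47. GK had 104.95, 118.8, 10.8 and 138.9 TPM in ADL 1 to ADL 4 and 8.64 to 15.7 TPM in RES. MTMR7, a lipid phosphatase, followed (0.54), then SDSL, a serine dehydratase-like enzyme (0.63), the carnitine transporter SLC22A5 (0.66) and the mitochondrial alanine aminotransferase GPT2 (0.66). In each of these 5 genes ADL 3 lay far below the other ADL lambs, and in SLC22A5 it was the lowest of all lambs, at 4.11 TPM. Nearest to ABHD5 was FITM2, an endoplasmic reticulum protein needed for droplets to form, at 0.15, with TIGAR and the fatty acid elongase ELOVL5 at 0.20 each. Nearest to PLIN3 were ATP13A3 (0.22), ATP1B1, the beta subunit of the sodium pump (0.25), and HIGD1A, a protein of mitochondria (0.26). Likeness of profile over 8 lambs, with 1 lamb apart in all of them, is a description of these libraries.

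**Figure D5:**
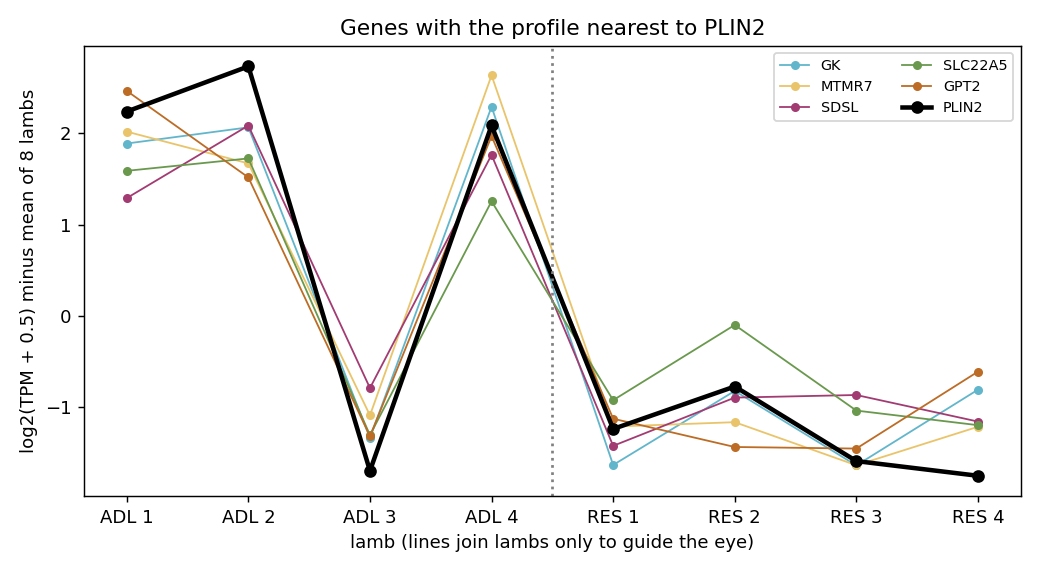
Deviation of log2(TPM + 0.5) from the mean of the 8 lambs for PLIN2 (black) and the 5 genes nearest to it. All 6 are high in ADL 1, ADL 2 and ADL 4 and low in ADL 3 and the RES lambs.

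Other proteins that form or coat droplets were taken from a list of 34 names, of which 33 were matched and tested. None passed in the 8 lambs, with 5 of 33 higher and 2 of 33 lower in RES at an unadjusted p under 0.05 (all genes 5.53% and 4.17%), and the median log2 fold change was -0.02 (all genes -0.04). HILPDA, a small droplet protein that also inhibits PNPLA2, had 96.9, 45.3, 14.2 and 39.5 TPM in ADL 1 to ADL 4 and 7.99, 7.69, 5.65 and 15.6 TPM in RES 1 to RES 4. It was higher in every ADL lamb than in every RES lamb except for ADL 3, which lay below RES 4. Its log2 fold change was -2.14 (SE 0.51, unadjusted limma p = 0.00192, adjusted p = 0.28), and in the authors' deposited table its adjusted p was 0.00111. Without ADL 3, 5 of the 33 fell and 2 rose (all genes 7.59% and 2.42%). Among the 5, HILPDA fell by 2.63, FITM2 by 1.59, FITM1 by 0.80 and RAB18 by 0.50 (limma adjusted p = 0.00393 to 0.0389). After rescaling 3 of these 5 still passed and FITM1 did not (limma adjusted p = 0.061). In the 8 lambs FITM2 was at -1.11, FITM1 at -0.54 and RAB18 at -0.27 (limma adjusted p = 0.451, 0.589 and 0.751). FITM2 had 29.2, 19.7, 6.38 and 28.99 TPM in ADL 1 to ADL 4 and 7.41 to 10.3 TPM in RES. Its adjusted p in the authors' deposited table was 0.0326.

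The 2 that rose without ADL 3 were NSDHL and LSS, enzymes of sterol synthesis that are found on droplets. Their log2 fold changes were then 1.16 for NSDHL and 1.20 for LSS (limma adjusted p = 0.0248 and 0.0376), and 0.99 and 1.06 in the 8 lambs (limma adjusted p = 0.282 and 0.292). In the 8 lambs each was higher in all RES than in all ADL lambs by a narrow margin. The lowest RES and highest ADL values were 9.60 and 9.42 TPM in NSDHL and 16.5 and 15.7 TPM in LSS. The share of all genes apart in this direction is not given here. SQLE, another sterol enzyme of droplets, had 11.1 TPM in ADL and 28.1 TPM in RES and did not pass in either fit (limma adjusted p = 0.307 and 0.0999), though it did in the authors' deposited table (0.00699). Without ADL 3 the droplet list thus held genes that moved in opposite directions, NSDHL and LSS up and HILPDA and FITM2 down.

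A list of other lipases, cofactors and carriers of their products held 31 names, 27 of them tested, with a median log2 fold change of -0.14 and no member past the threshold in the 8 lambs. At an unadjusted p under 0.05, 3 of 27 were higher and 3 lower in RES (all genes 5.53% and 4.17%). The higher ones were the protein kinase A subunit PRKACA (log2 fold change 0.53), the lysosomal lipase LIPA (0.72) and the fatty acid carrier FABP1 (1.06). The lower ones were HILPDA, which is on both lists, and the glycerol channels AQP3 (-1.26) and AQP7 (-1.22). PRKACA had all RES above all ADL lambs, a pattern whose share over all genes is not given here. AQP7 had 282.8, 69.8, 31.1 and 102.6 TPM in ADL 1 to ADL 4 and 28.99 to 43.1 TPM in RES. Without ADL 3, HILPDA and AQP7 (-1.72, limma adjusted p = 0.0414, and 0.0506 after rescaling) fell. PRKACA (0.57, limma adjusted p = 0.0419) and AQP9 (0.98, limma adjusted p = 0.0242), a glycerol channel of hepatocytes, rose, so that 2 of 27 passed each way (all genes 7.59% down and 2.42% up). In the 8 lambs AQP9 was at 0.59 (limma adjusted p = 0.661). LIPA (0.60), FABP1 (1.18) and AQP3 (-1.23) did not pass without ADL 3 (limma adjusted p = 0.111, 0.153 and 0.148). In the authors' deposited table AQP3 passed (adjusted p = 0.0453), and LIPA and FABP1 did not (0.0782 and 0.233). AQP9 was highest in ADL 3, at 684.9 TPM against 163.95 to 268.8 TPM in the other ADL lambs and 413.5 to 493.98 TPM in RES. Hormone-sensitive lipase (LIPE), the second lipase of adipocytes, was under 1 TPM in every lamb.

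Fatty acid sensing by PPARA and its classical hepatic targets, from a list of 36 names with 28 tested, had a median log2 fold change of -0.43 in the 8 lambs (all genes -0.04), with 23 of 28 lower (all genes 56.5%). None passed, and 4 were lower and 1 higher at an unadjusted p under 0.05 (all genes 4.17% and 5.53%). Without ADL 3 the median was -0.79 (all genes -0.13), with 24 of 28 lower (all genes 63.9%). Past the threshold, 8 of 28 fell and none rose (all genes 7.59% and 2.42%). After rescaling 5 of 28 fell (all genes 3.87%). ACSL1, which activates long-chain fatty acids, had 45.4 TPM in ADL 3, 504.5 to 696.7 TPM in the other ADL lambs and 118.1 to 224.1 TPM in RES, and fell by 1.93 without ADL 3 (SE 0.23, limma adjusted p = 0.00416). ACSL1 was at -1.01 in the 8 lambs (limma adjusted p = 0.716). In ACSL1, too, ADL 3 lay below every RES lamb, as it did in 6 of the members. ANGPTL4, APOA4 and ACAA2 were lower in RES at an unadjusted p under 0.05 in the 8 lambs (log2 fold changes -1.96, -5.66 and -0.73). Without ADL 3 they were at -2.27, -7.26 and -0.91 (limma adjusted p = 0.0202, 0.00377 and 0.0311). After rescaling ACAA2 did not pass (limma adjusted p = 0.0553). APOA4 had 3556, 704.3, 10.8 and 328.1 TPM in ADL 1 to ADL 4 and 3.14 to 16.6 TPM in RES. In the authors' deposited table the adjusted p of ANGPTL4, APOA4 and ACAA2 was 0.00398, 0.0995 and 0.0715. In each of these genes ADL 3 lay within the RES range. FABP1 was the 1 member of that list higher in RES at this p, with 614.2 ± 269.4 TPM in ADL and 1318 ± 613.4 in RES, and EHHADH and PPARD had log2 fold changes of 0.44 and 0.21 (limma adjusted p = 0.692 and 0.738).

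Markers of other liver cells were summed per lamb. Stellate cell markers (9 genes) came to 386.5 to 539.7 TPM in ADL and 289.5 to 470.9 in RES, and sinusoidal endothelial markers (6 genes) to 218.5 to 415.2 and 227.2 to 320.3 TPM. Macrophage markers (9 genes), from cells that can also hold droplets, came to 1195 to 1454 TPM in ADL and 1420 to 1648 in RES. Cholangiocyte markers (5 genes) came to 20.8 to 47.9 TPM in ADL and 8.74 to 20.3 in RES, so that these groups were apart by a narrow margin. Of the 5 genes, 3 were lower in RES at an unadjusted p under 0.05 (all genes 4.17%). None of the 5 passed (limma adjusted p = 0.272 to 0.763). Their part in the members' values was not tested. Hepatocyte markers (8 genes) came to 96448 to 135307 TPM in ADL and 95090 to 176318 in RES, red cell markers (4 genes) to 7.04 to 51.8 and 2.79 to 105.7, and muscle markers (4 genes) to at most 1.33 TPM in any lamb. In ADL 3 itself stellate and macrophage markers lay within the range of the other ADL lambs, while its sinusoidal endothelial and adipocyte sums (218.5 and 272.9 TPM) and its PLIN2 lay below it. Its hepatocyte sum of 114196 TPM held 53575 TPM of FGB, and ALB (31098 TPM against 44061 to 78469 TPM), TTR and APOA1 were lower in ADL 3 than in the other ADL lambs. TF went the other way, with 9435 TPM in ADL 3 against 5449 to 8272 TPM. SERPINA1, AHSG and APOB of ADL 3 lay within the range of the other ADL lambs.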

How the data were processed

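Per the labels' protocols, polyadenylated RNA of livers stored in RNAlater was made into libraries and sequenced from both ends. The submitters' processing notes name DESeq2 1.12.4 and bcl2fastq 1.8.4, with aligner, counter, strand use and genome build not given in the sources used here. Per the file headers, the authors deposited TPM per lamb and gene length, with a DESeq2 comparison: a normalized mean signal, log2 fold changes (shrunken, and maximum likelihood), standard errors, a test score, and p-values unadjusted and adjusted. TPM of a lamb sum to a fixed total, so a rise in abundant genes lowers all others.

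TPM times gene length gave whole reads in 100% of values (within 0.001), and their scaled means equalled the authors' means in 22465 genes. Genes averaging at least 1 TPM entered limma 3.58.1 (R 4.3.3; trended prior, two-sided) on log2(TPM + 0.5), a procedure checked on simulated reads. Samples were grouped by the titles. The labels name separate lambs as replicates. Alternatives were pseudocounts of 0.1 and 1, no filter or a mean TPM of at least 5, median-of-ratios rescaling, voom on recovered reads, lamb number as a block, age as a covariate and leaving out each lamb. Lamb numbers did not pair the lambs.

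The members and lists were chosen with earlier results of these data known. List names were matched by table symbol, then by the symbol of the Entrez identifier in a RefSeq gene table, then by alias. Named list genes are up to 3 in each direction with the smallest p in the 8 lambs and up to 3 in each direction among those past the threshold without ADL 3; profile neighbours are the 5 nearest to PLIN2 and 3 for each other member with an unadjusted p under 0.05 or a call without ADL 3. Reads shared by similar or overlapping genes may be assigned to either copy. A gene that the rule names is not reported here; it stays in every test and count.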

Additional observations from a re-analysis of the deposited data

Results flagged for a closer look

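In groups of 4 lambs, a lamb was singled out where its gap to the nearest other lamb took up more of the group's range than Dixon's 95% critical value. Over 82 groups this found 8. Genes, ratios and shares reuse the same values and need not be normal, so the nominal rate of 1 in 20 cannot be set against this count. PLIN2 as a share of perilipin TPM was 40.46% in ADL 3 against 72.1 to 78.4% in the other ADL lambs. The log2 ratio of ABHD5 to PNPLA2 was -2.03 in ADL 3 against -0.94 to -0.81, and in RES 2 it was -1.29 against -2.30 to -2.17. ABHD5 had 23.12 TPM in RES 2 against 12.99 to 13.8 in the other RES lambs, and FITM2 10.31 TPM in RES 2 against 7.41 to 7.69. PLIN3 had 21.56 TPM in RES 1 against 14.9 to 15.0. CIDEC had 5.595 TPM in ADL 1 against 1.20 to 1.31, and PNPLA3 0.2472 TPM (5 reads) in ADL 1 against 0 in the other ADL lambs.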

How the results depend on the processing

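Of 13812 genes, 1 was called in the 8 lambs. The count was 0 with median-of-ratios rescaling, without the filter on low values, with voom on recovered reads and with lamb number as a replicate block. It ran from 0 to 1382 when each lamb was left out, 1382 without ADL 3 and 49 without RES 4, and was 1150 without ADL 3 after rescaling. Leaving out ADL 3 also brought calls among the members, for PLIN2 (-3.69; -3.55 rescaled), PLIN3 (-1.28; -1.14 rescaled) and ABHD5 (-1.53; -1.38 rescaled), and among other droplet proteins (7; 5 rescaled), lipases and cofactors (4; 3 rescaled) and fatty acid sensing (8; 5 rescaled), each with 0 in the 8 lambs. With each lamb left out, the log2 fold change ran from -3.69 to -2.22 for PLIN2, from -1.28 to -0.53 for PLIN3 and from -1.53 to -0.79 for ABHD5. CIDEB reversed without ADL 1 (0.17) and without RES 4 (0.05), over a range of -0.34 to 0.17. The cause was not tested. Under the alternatives that kept 8 lambs, no member was called and none changed sign, with PLIN2 between -3.02 and -2.62 (limma adjusted p = 0.246 to 0.499). With the replicate block, PLIN2 was at -2.68 (limma adjusted p = 0.246). Same-numbered lambs of the groups deviated together in 2 of 4 pairs (correlations across genes 0.112, -0.0014, -0.0439 and 0.159), so that the number gives no pairing. Levels under about 1 TPM (PLIN4, PNPLA3) rest on too few reads for a comparison.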
